A study of Mus musculus with 12 samples.

Results

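The proteasome genes, constitutive and immune, were followed in T cells of mice given a stapled peptide against FOXP3. The members were all gene symbols that begin with Psm, a letter from a to g and a number. The rule found 47 genes in both deposited tables, out of 10405 symbols listed for Treg and 9886 listed for Tcon, and no member shared its values with another symbol. Of the 47, 46 are proteasome subunits, activators, inhibitors or assembly chaperones, and Psmc3ip matches the rule by its name only. The GENCODE M21 annotation holds 50 protein-coding genes that match, and Psma8, Psmb11 and Psme2b are not listed in either table. RNA was sequenced in 6 libraries of Treg, regulatory T cells sorted as CD4+CD25+FOXP3+, and in 6 of Tcon, naive CD4+ conventional T cells. All animals were of the strain B6.Cg-Foxp3tm2Tch/J (FOXP3-IRES-GFP), in which the Foxp3 locus also encodes GFP. They were injected intraperitoneally once a day for 2 days with SAH-FOXP3(229-259)C (SAH) at 25 mg/kg or with vehicle, which the titles call DMSO. In each cell type, 2 SAH libraries (05, 06) and 1 vehicle library (04) came from spleen, and 2 SAH libraries (02, 03) and 1 vehicle library (01) from lymph node. The labels give neither the age of the mice nor whether libraries came from separate mice, so the p-values speak of the spread among these libraries alone, part of which may be technical.

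The proteasome degrades ubiquitin-tagged proteins. Its core particle is a barrel of alpha rings and beta rings, and 3 kinds of beta subunit carry the active sites. The constitutive active subunits are Psmb5 (chymotrypsin-like), Psmb6 (caspase-like) and Psmb7 (trypsin-like). In lymphocytes and in cells exposed to interferon, Psmb8, Psmb9 and Psmb10 can take the places of Psmb5, Psmb6 and Psmb7 in newly built particles, which are then called immunoproteasomes and favour peptides that fit class I molecules. The 19S regulator, made of an ATPase base and a lid, recognises and unfolds substrates, while the PA28 proteins Psme1 and Psme2 are an interferon-inducible cap of the core.

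The rebuilt depth was 36442420 to 48888678 reads per library in the listed genes, at which 1 read was worth at most 0.0267 CPM. All 47 members passed the low-value filter, as did every listed gene. The lowest member, Psmc3ip, averaged 2.00 ± 0.231 CPM in the Treg libraries and 2.13 ± 0.325 CPM in the Tcon libraries (SD, n = 6 each). The labelled cell types fitted their markers: the summed CPM of 5 Treg markers was 3881 to 4397 in Treg libraries and 236 to 286 in Tcon libraries, and that of 5 naive T cell markers was 2165 to 2444 in Treg and 4474 to 4831 in Tcon. Markers of other cells differed by organ and by cell type. The B cell list had 7 of 10 genes listed in Treg, with sums of 97.5 to 134.5 CPM in spleen and 61.3 to 77.6 in lymph node, and 5 of 10 in Tcon, with 34.0 to 54.2 CPM in spleen and 7.20 to 11.4 in lymph node. The B cell genes Ms4a1 and Pax5 are listed in neither table. The myeloid list had 6 of 10 genes in Treg, summing to 274 to 295 CPM in spleen and 298 to 324 in lymph node, and 4 of 10 in Tcon, summing to 188 to 210.5 in spleen and 199 to 231 in lymph node, while Spi1, Fcer1g, Cd14 and Itgax are listed in neither table. Ctss made up most of these sums, at 193 to 296 CPM in Treg and 147 to 213 CPM in Tcon. Of the 6 myeloid genes 5 were called higher in spleen Treg and 1, Ctss, lower, where 14.7% of all genes were called in either direction. Of the 4 in Tcon 3 had higher values in spleen, of which Lyz2 was called, where 4.73% of all genes were called (limma). Lyz2 was at 21.6 to 52.2 CPM in spleen and 0.901 to 1.33 in lymph node Treg, and at 18.1 to 22.7 CPM in spleen and 0.0800 to 0.664 in lymph node Tcon. Of the plasma cell list only Jchain is listed, at 72.1 to 119.9 CPM in spleen and 0.147 to 0.849 in lymph node Treg, and at 36.7 to 102.5 CPM in spleen and 0.281 to 0.373 in lymph node Tcon. The red cell list, of which 2 of 6 genes are listed in Treg and 1 of 6 in Tcon, summed to 10.7 to 138.5 CPM in spleen and 0.626 to 0.849 in lymph node Treg, and to 3.38 to 49.997 CPM in spleen and 0 in lymph node Tcon. The CD8 and NK cell list had 4 of 8 genes in Treg, summing to 30.1 to 31.1 CPM in spleen and 39.2 to 39.98 in lymph node, and 5 of 8 in Tcon, summing to 65.0 to 78.6 in spleen and 40.3 to 45.4 in lymph node. The part of such cells in the results was not tested.

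Psmb8, the immune subunit that takes the place of Psmb5, was the active subunit with the most RNA per kilobase of transcript in both cell types. In Treg, Psmb8 (chromosome 17, 34197721 to 34201454, plus strand, mm10) stood at 252 and 249 CPM in the spleen SAH libraries, 257 in the spleen vehicle library, 275 and 255 in the lymph node SAH libraries and 259 in the lymph node vehicle library. In Tcon, Psmb8 stood at 179 and 157 CPM in the spleen SAH libraries, 180.5 in the spleen vehicle library, 189 and 164 in the lymph node SAH libraries and 172 in the lymph node vehicle library. Library 02, from SAH-treated lymph node, was the highest in each cell type, and SAH and vehicle values overlapped. Its constitutive counterpart Psmb5 (chromosome 14, 54614119 to 54618022, minus strand) had 27.2 and 27.1 CPM in the spleen SAH libraries, 29.3 in the spleen vehicle library, 31.2 and 28.2 in the lymph node SAH libraries and 30.2 in the lymph node vehicle library of Treg. In Tcon, Psmb5 had 22.8 and 22.1 CPM in the spleen SAH libraries, 26.0 in the spleen vehicle library, 27.4 and 23.5 in the lymph node SAH libraries and 23.7 in the lymph node vehicle library. In spleen both SAH libraries were below the vehicle library in each cell type, while in lymph node the vehicle library lay between the SAH libraries.

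Psmb9 (chromosome 17, 34181987 to 34187764, minus strand) takes the place of Psmb6. In Treg it had 81.5 and 75.9 CPM in the spleen SAH libraries, 78.4 in the spleen vehicle library, 87.4 and 78.9 in the lymph node SAH libraries and 78.0 in the lymph node vehicle library. In Tcon it had 69.9 and 58.6 CPM in the spleen SAH libraries, 70.5 in the spleen vehicle library, 74.3 and 57.0 in the lymph node SAH libraries and 66.2 in the lymph node vehicle library. Library 02 was again the highest of its cell type, and the Tcon libraries 03 and 06 were the lowest, at 57.0 and 58.6 CPM. Psmb6 (chromosome 11, 70525367 to 70527858, plus strand) varied little in Treg, at 60.8 and 59.2 CPM in the spleen SAH libraries, 63.0 in the spleen vehicle library, 63.4 and 60.3 in the lymph node SAH libraries and 60.4 in the lymph node vehicle library. In Tcon, Psmb6 had 63.9 and 59.4 CPM in the spleen SAH libraries, 63.3 in the spleen vehicle library, 68.5 and 54.9 in the lymph node SAH libraries and 52.1 in the lymph node vehicle library. Its Tcon values thus spread over a wider range than its Treg values, with the lymph node vehicle library lowest.

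Psmb10 (chromosome 8, 105935735 to 105938444, minus strand) takes the place of Psmb7. In Treg, Psmb10 had 85.1 and 85.0 CPM in the spleen SAH libraries, 83.8 in the spleen vehicle library, 92.0 and 82.6 in the lymph node SAH libraries and 78.1 in the lymph node vehicle library. In Tcon it had 72.6 and 66.3 CPM in the spleen SAH libraries, 70.7 in the spleen vehicle library, 72.0 and 60.8 in the lymph node SAH libraries and 63.3 in the lymph node vehicle library. All 4 SAH libraries of Treg lay above the vehicle library of their own organ, which was not so in Tcon. The same held in Treg for 5 of 47 members and for 1397 of 10405 genes. Psmb7 (chromosome 2, 38588036 to 38644087, minus strand) had 61.7 and 57.0 CPM in the spleen SAH libraries, 60.9 in the spleen vehicle library, 64.8 and 63.2 in the lymph node SAH libraries and 59.2 in the lymph node vehicle library of Treg. In Tcon, Psmb7 had 68.0 and 62.7 CPM in the spleen SAH libraries, 69.6 in the spleen vehicle library, 66.0 and 60.8 in the lymph node SAH libraries and 60.5 in the lymph node vehicle library. Psmb7 was the only one of the 6 active subunits whose mean in the Tcon table was above that in the separately normalized Treg table, at 61.1 ± 2.78 CPM in the Treg libraries and 64.6 ± 3.82 CPM in the Tcon libraries (SD, n = 6 each).

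The windows before the start sites of the active subunits Psmb8, Psmb9, Psmb10, Psmb5 and Psmb6 were searched for a pair of motifs because the constitutive genes are known targets of NRF-family factors and the immune genes of interferon signalling. Sequences are from RefSeq on GRCm38.p6, 250 bases before each start, 5′ to 3′ on the gene's strand, with bases inside GENCODE exons left out and TGACNNNGC, the core of the antioxidant response element, in capitals. They cover chr8:105938445-105938642 for Psmb10 (minus strand), chr14:54618023-54618245 for Psmb5 (minus strand) and chr11:70525107-70525356 for Psmb6 (plus strand).
Psmb10: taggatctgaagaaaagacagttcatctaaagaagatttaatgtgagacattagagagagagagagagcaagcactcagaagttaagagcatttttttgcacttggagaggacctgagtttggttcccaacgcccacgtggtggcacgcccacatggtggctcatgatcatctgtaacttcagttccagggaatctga
Psmb5: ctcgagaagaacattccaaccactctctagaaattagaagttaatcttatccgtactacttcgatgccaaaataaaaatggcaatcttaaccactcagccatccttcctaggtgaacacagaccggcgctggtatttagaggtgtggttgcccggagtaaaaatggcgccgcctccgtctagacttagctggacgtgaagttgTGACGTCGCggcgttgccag
Psmb6: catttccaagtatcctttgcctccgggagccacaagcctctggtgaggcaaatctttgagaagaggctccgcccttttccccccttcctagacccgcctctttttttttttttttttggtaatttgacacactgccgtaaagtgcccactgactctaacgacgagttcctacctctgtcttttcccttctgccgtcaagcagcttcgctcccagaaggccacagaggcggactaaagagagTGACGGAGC
The window of Psmb7 was not analysed here. The motif TGACNNNGC stood once in the Psmb5 and once in the Psmb6 stretch and not in the Psmb10 stretch. On either strand of the whole 250-base windows it was in 5 of the 40 members with a window (12.5%), which are Psmb5, Psmb6, Psmc6, Psmd12 and Psmd9, and in 11.5% of 27025 genes. TTCNNNGAA, the form of a gamma-activated site, was in the windows of Psmb8 and Psmg1, 5% of the members with a window, and in 8.13% of genes. The windows of Psmb8 and Psmb9 lie wholly inside exons of GENCODE transcripts and are not shown.

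Levels were set between genes only per kilobase of transcript. With the longest annotated transcript, Psmb8 averaged 135 ± 4.77 CPM per kb in Treg and 91.0 ± 6.12 in Tcon, against 32.1 ± 1.82 in Treg and 27.0 ± 2.25 in Tcon for Psmb5 (SD, n = 6 each). Psmb9 was below its counterpart, at 27.7 CPM per kb in Treg and 22.9 in Tcon, while Psmb6 had 63.3 in Treg and 62.5 in Tcon. With the principal transcript of each gene the values were closer, at 59.2 CPM per kb in Treg and 48.9 in Tcon for Psmb9 and at 76.7 in Treg and 75.6 in Tcon for Psmb6. Psmb10 was above Psmb7 with the longest transcripts, at 64.4 CPM per kb in Treg and 51.6 in Tcon against 21.5 in Treg and 22.7 in Tcon for Psmb7. With the principal transcript, Psmb7 reached 52.7 CPM per kb in Treg and 55.7 in Tcon, and the order of the 2 turned in Tcon but not in Treg. The order of Psmb8 over Psmb5 and of Psmb6 over Psmb9 was the same with the longest transcript, the principal transcript and the union of exons. Among all members, Psmb8 ranked first per kb in Treg with the longest transcript, and Psme1, a PA28 subunit, ranked first with the other 2 lengths (196 CPM per kb with the principal transcript against 158 for Psmb8). In Tcon, Psme1 ranked first with each of the 3 lengths, at 93.1 CPM per kb with the longest. Psmc3ip ranked last in every case, at 1.55 CPM per kb in Treg and 1.65 in Tcon with the longest transcript, and the lowest proteasome gene was the assembly chaperone Psmg3, at 2.48 in Treg and 1.87 in Tcon. Exons of Psmb9 overlap 212 bases of Tap1 on the opposite strand, those of Psmb7 405 bases of Nek6, and those of Psmb8 498 bases of the antisense gene Gm20496. The kit was stranded, but whether counting used strand is not given in the sources used here, so these levels are uncertain by the reads of such partners.

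Each immune subunit made up more of its pair in Treg than in Tcon. The tables of the 2 cell types were normalized separately, and a ratio of 2 genes within a library does not depend on that scaling. Psmb8 over Psmb5 was 9.25 and 9.18 in the spleen SAH libraries, 8.78 in the spleen vehicle library, 8.81 and 9.05 in the lymph node SAH libraries and 8.59 in the lymph node vehicle library of Treg. In Tcon it was 7.86 and 7.08 in the spleen SAH libraries, 6.95 in the spleen vehicle library, 6.88 and 6.96 in the lymph node SAH libraries and 7.26 in the lymph node vehicle library. Every Treg library lay above every Tcon library for this pair. The mean ratio was 8.94 ± 0.256 in Treg and 7.17 ± 0.364 in Tcon (SD, n = 6 each), a difference of 0.32 on the log2 scale or 1.25-fold.

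Psmb10 over Psmb7 was 1.38 and 1.49 in the spleen SAH libraries, 1.38 in the spleen vehicle library, 1.42 and 1.31 in the lymph node SAH libraries and 1.32 in the lymph node vehicle library of Treg. In Tcon it was 1.07 and 1.06 in the spleen SAH libraries, 1.02 in the spleen vehicle library, 1.09 and 1.00 in the lymph node SAH libraries and 1.05 in the lymph node vehicle library. The cell types did not overlap, and the means were 1.38 ± 0.0679 in Treg and 1.05 ± 0.0337 in Tcon (SD, n = 6 each), 0.40 apart on the log2 scale or 1.32-fold. Psmb9 over Psmb6 was 1.34 and 1.28 in the spleen SAH libraries, 1.24 in the spleen vehicle library, 1.38 and 1.31 in the lymph node SAH libraries and 1.29 in the lymph node vehicle library of Treg. In Tcon it was 1.09 and 0.986 in the spleen SAH libraries, 1.11 in the spleen vehicle library, 1.08 and 1.04 in the lymph node SAH libraries and 1.27 in the lymph node vehicle library. Here the groups overlapped, since the lymph node vehicle library of Tcon, in which Psmb6 was low, lay inside the Treg range. The means were 1.31 ± 0.0475 in Treg and 1.10 ± 0.0967 in Tcon (SD, n = 6 each), 0.26 apart on the log2 scale or 1.19-fold. The exon overlaps of Psmb9, Psmb7 and Psmb8 given above apply to the ratios too. Tap1, which overlaps Psmb9, averaged 347 CPM in the Treg libraries and 256 CPM in the Tcon libraries. The part of such reads in the ratios was not tested.

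For all 3 pairs the exact permutation test with cell type labels exchanged within organ (two-sided, 400 arrangements) gave p = 0.005, the smallest it can give, and 0.005 after Benjamini-Hochberg adjustment over the 3 pairs. A gap between the cell types was common among genes. Over the summed CPM of the 14 constitutive core genes of a library, 30.3% of 9784 genes were higher in every Treg library. Another 18.0% were lower in every Treg library than in any Tcon library. The share of other gene pairs with such a difference in ratio was not computed. The ratio was higher in Treg in 6 of 6 library numbers for each pair, and with the numbers taken as pairs the exact sign-flip test gave p = 0.03125, the smallest it can give. Within spleen the log2 differences were 0.32 for Psmb8 over Psmb5, 0.28 for Psmb9 over Psmb6 and 0.43 for Psmb10 over Psmb7, and within lymph node 0.33, 0.23 and 0.37, where 3 libraries against 3 cannot go below an exact p of 0.1. The B cell and myeloid marker sums given above were also higher in Treg than in Tcon. They are over 7 against 5 B cell genes and 6 against 4 myeloid genes, normalized separately. Cd74, at 41.3 to 75.0 CPM in Treg and 3.39 to 25.0 CPM in Tcon, made up most of the B cell sums of Treg. Cd79a and Cd22 also had higher means in Treg, while H2-Aa and H2-Eb1 overlapped between the cell types in each organ. Of the shared myeloid genes, Cd68 had the lower mean in Treg (4.94 CPM against 5.92 CPM in Tcon), and Lyz2, Cst3 and Ctss had higher means. The CD8 and NK sums, over 4 against 5 genes, were lower in Treg spleen (30.1 to 31.1 CPM) than in Tcon spleen (65.0 to 78.6 CPM). In lymph node they were 39.2 to 39.98 CPM in Treg and 40.3 to 45.4 CPM in Tcon. The Tcon sums include Klrd1, at 9.57 to 20.5 CPM, which is not listed in Treg. In lymph node, Nkg7 was higher in Treg (18.3 to 22.4 CPM) than in Tcon (1.07 to 2.09 CPM), while Cd8b1, Prf1 and Eomes were lower in Treg. The part of such cells in the ratios was not tested. In bulk samples, fewer cells of a type and less RNA per cell cannot be told apart.

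**Figure D1:**
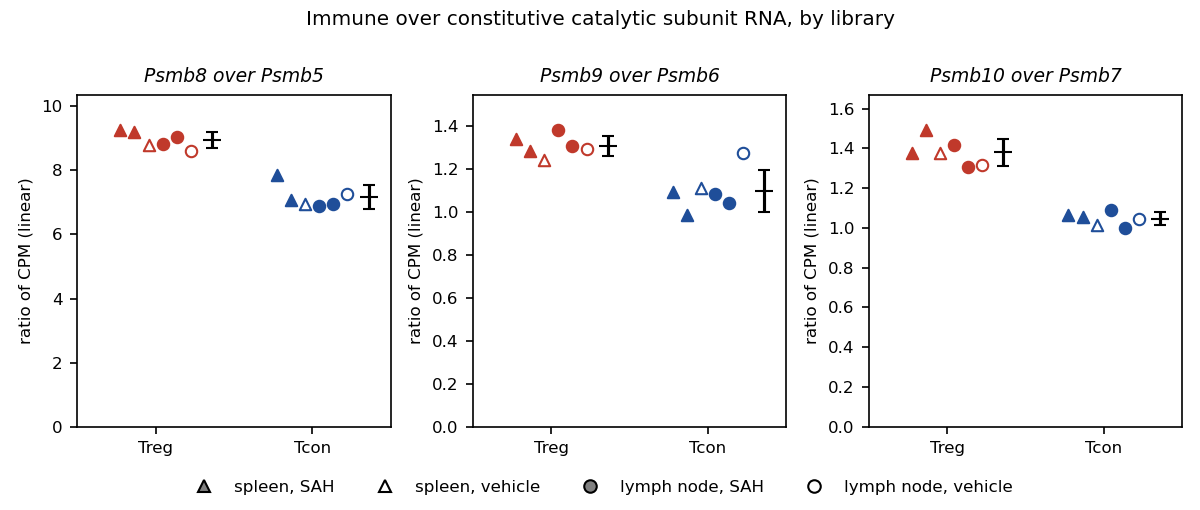
Ratio of the CPM of an immune active subunit to that of the constitutive subunit it replaces, on a linear axis from 0, for each of the 6 Treg and 6 Tcon libraries (triangles spleen, circles lymph node, filled SAH, open vehicle), with the mean and SD as black bars. Treg and Tcon libraries are apart for Psmb8 over Psmb5 and for Psmb10 over Psmb7, and 1 Tcon library at 1.27 reaches into the Treg range for Psmb9 over Psmb6.

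Relative to the rest of the core particle, the 3 immune subunits were also higher in Treg. Each gene's CPM was divided by the summed CPM of the 14 constitutive core genes (alpha ring and constitutive beta ring) of the same library, a sum of 892 to 940 in Treg and 868 to 956 in Tcon. Psmb8 came to 28.2% ± 0.660 of that sum in Treg and 19.02% ± 0.752 in Tcon, 1.48-fold. Psmb10 came to 9.24% ± 0.395 in Treg and 7.41% ± 0.3003 in Tcon, and Psmb9 to 8.76% ± 0.286 in Treg and 7.24% ± 0.538 in Tcon (SD, n = 6 each). Psmb8, Psmb9 and Psmb10 thus had all 6 Treg libraries above all 6 Tcon libraries.

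In all, 9 of 47 members were higher in every Treg library than in any Tcon library on this scale, where 30.3% of the 9784 genes in both tables were, and 3 were lower, where 18.0% of genes were, so the count of members was not above that of other genes. The other 35 members overlapped. The 14 core genes that form the sum are themselves among the 47 members, and dividing by their own sum fixes their total in every library. The counts of members are thus partly set by the scale. Beside the immune subunits, the higher members were Psmd13 (1.25-fold) and Psmd8 (1.14-fold) of the lid, Psmd2 (1.23-fold), a base scaffold that receives ubiquitin shuttle proteins, Psmb5 (1.19-fold), Psme1 (1.18-fold) and Psmb3 (1.10-fold). Psme1 was at 23.9% of the core sum in Treg and 20.3% in Tcon, while its partner Psme2, at 10.1% in Treg and 9.57% in Tcon, overlapped between the cell types. The constitutive subunit Psmb5 was itself higher in Treg, at 3.16% ± 0.156 in Treg and 2.66% ± 0.158 in Tcon, and Psmb6 and Psmb7 overlapped. The lower members were the ATPase Psmc6, at 7.70% ± 0.131 in Treg and 9.91% ± 0.370 in Tcon (0.777-fold), the lid subunit Psmd12 (0.874-fold) and the alpha subunit Psma1 (0.916-fold). Over all members, the core genes included, the median log2 difference was 0.01, against 0.08 over all genes, a contrast also partly set by the scale. Exons of Psmd13 overlap 342 bases of Sirt3 on the opposite strand.

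**Figure D2:**
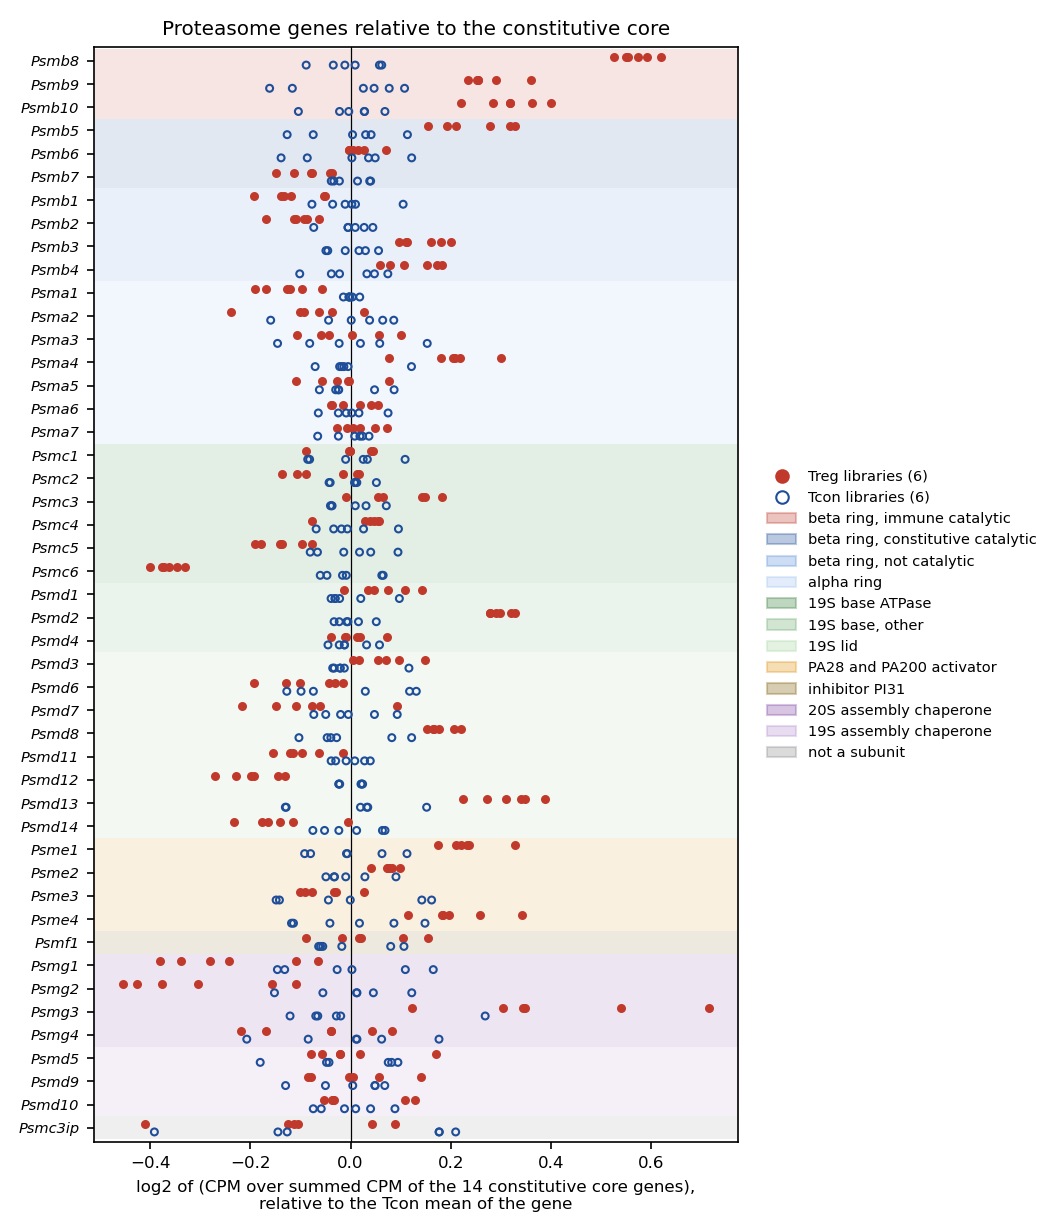
Level of each member relative to the constitutive core, as log2 of its CPM over the summed CPM of the 14 core genes minus the Tcon mean of that gene, with 1 point for each of 6 Treg (filled red) and 6 Tcon (open blue) libraries and bands coloured by role. Psmb8 is farthest to the right without overlap (1.48-fold) and Psmc6 farthest to the left (0.777-fold), while most subunits scatter around 0. The 14 core genes are part of the sum, which fixes their total in every library.

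SAH changed no member past the threshold in either cell type. In Treg, 0 of 47 members were called, where 0.202% of the 10405 genes were called, and in Tcon 0 of 47, where 1.04% of 9886 genes were (limma, Benjamini-Hochberg adjusted p below 0.05 over all genes). In Treg 1 member had an unadjusted p below 0.05, as did 7.04% of genes, and in Tcon 0 did, against 14.1% of genes. The median log2 change over the members was -0.01 in Treg, with 19 positive and 28 negative, and -0.02 in Tcon, with 17 positive and 30 negative, while the median over all genes was 0.003 in Treg and -0.003 in Tcon. For 45 of 47 members in each cell type the 95% interval stayed within 1.25-fold in either direction, the others being the low-count genes Psmc3ip and Psmg3, and for all 47 within 1.5-fold.

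The active subunits and PA28 gave small values on both sides of 0 with SAH. In Treg, Psmb8 changed by -0.003 on the log2 scale (95% interval -0.11 to 0.11, adjusted p = 0.998 by limma), Psmb9 by 0.05, Psmb10 by 0.09 (-0.04 to 0.21, adjusted p = 0.872 by limma), Psmb5 by -0.06, Psmb6 by -0.02, Psmb7 by 0.04, Psme1 by 0.04 and Psme2 by -0.003. In Tcon, the values were -0.04 for Psmb8 (-0.21 to 0.13, adjusted p = 0.875 by limma), -0.08 for Psmb9, 0.02 for Psmb10, -0.05 for Psmb5, 0.10 for Psmb6, -0.01 for Psmb7, -0.08 for Psme1 and 0.01 for Psme2. The intervals of the immune subunits reached up to 0.21 in Treg (Psmb10) and down to -0.31 in Tcon (Psmb9).

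The member with the smallest p in Treg was Psma2, an alpha ring subunit on chromosome 13. It had 80.4 and 75.0 CPM in the spleen SAH libraries, 75.9 in the spleen vehicle library, 80.7 and 83.5 in the lymph node SAH libraries and 68.7 in the lymph node vehicle library of Treg. The SAH libraries were above vehicle in lymph node and on both sides of it in spleen, and the log2 change was 0.14 (0.01 to 0.27, adjusted p = 0.651 by limma). Next came Psmd14, the lid deubiquitinase, at 0.11 (adjusted p = 0.845), Psmc2, an ATPase, at -0.08 (adjusted p = 0.868), and Psmd13 at 0.09 (adjusted p = 0.868, all by limma).

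In Tcon the smallest p was that of Psmd13, which had 52.2 and 48.6 CPM in the spleen SAH libraries, 58.1 in the spleen vehicle library, 47.6 and 44.0 in the lymph node SAH libraries and 48.6 in the lymph node vehicle library. Each SAH library was below the vehicle library of its organ, as for 1654 of 9886 genes, and the log2 change was -0.14 (-0.28 to 0.001, adjusted p = 0.356 by limma). The inhibitor Psmf1 had a log2 change of -0.14 (adjusted p = 0.364), the lid subunit Psmd6 of -0.11 (adjusted p = 0.503) and Psmc6 of -0.10 (adjusted p = 0.526, all by limma). In the authors' deposited table, which compares SAH with vehicle over both organs, 0 members had a false discovery rate below 0.05. The smallest p of a member there was 0.0418 for Psma2 in Treg, with a log2 fold change of 0.14 and a false discovery rate of 0.813 in the authors' deposited table.

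In some libraries most proteasome genes lay on the same side of their means. Of the 46 subunits and partners, 37 were above their Treg mean in library 02 (lymph node SAH) and 38 below it in library 06 (spleen SAH), and 39 were above their Tcon mean in library 02 and 42 below it in library 06. In Tcon, library 04 (spleen vehicle) also had 39 above the mean. In the other libraries 14 to 29 were above it in Treg and 12 to 31 in Tcon. The median deviation of the 46 genes was 0.05 in Treg and 0.06 in Tcon for library 02, and -0.05 in Treg and -0.07 in Tcon for library 06, with that of all genes within 0.004 of 0 in every library. Library 06 also had the highest red cell marker sum of its cell type, and the part of such cells was not tested. The median coefficient of variation over 6 libraries was 4.44% in Treg and 6.34% in Tcon for the members, against 6.83% in Treg and 6.92% in Tcon for all genes. For genes in the same range of mean CPM as the 46 subunits and partners it was 6.42% in Treg and 6.71% in Tcon, so in Tcon the members were close to such genes.

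**Figure D3:**
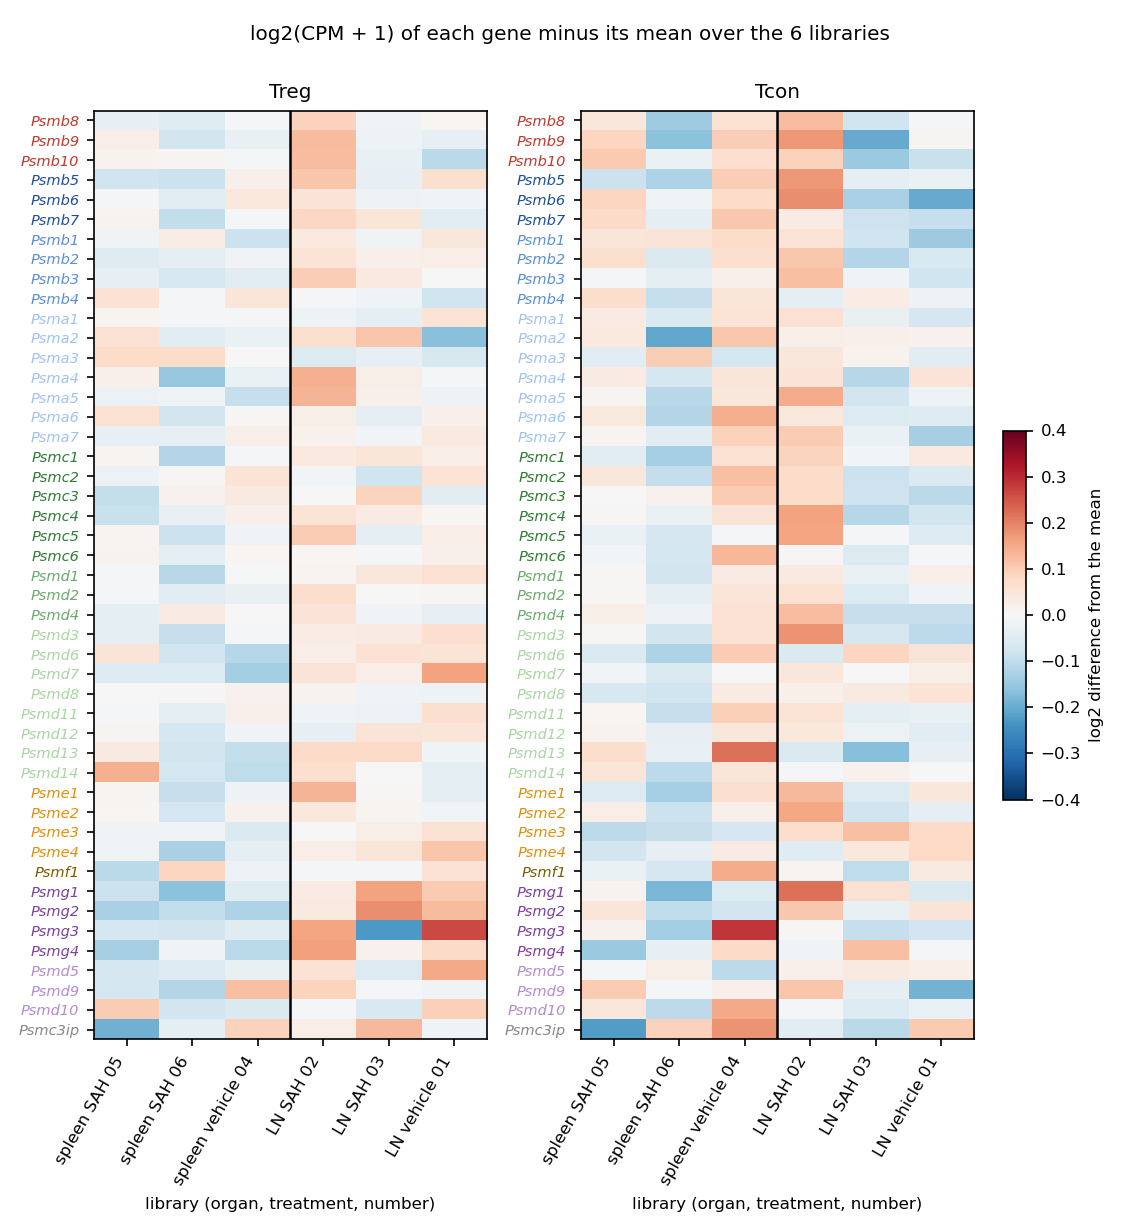
Heat map of log2(CPM + 1) of each member minus its mean over the 6 libraries of a cell type (red above, blue below), with libraries as columns (spleen left of the black line, lymph node right, SAH left of vehicle) and gene names coloured by role. Library 02 is mostly red and library 06 mostly blue in both Treg and Tcon.

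In spleen against lymph node, 0 of 47 members were called in Treg, where 14.7% of genes were called, and 0 of 47 in Tcon, where 4.73% were (limma, Benjamini-Hochberg adjusted p below 0.05 over all genes). In Treg, 41 of 47 members had a lower value in spleen, with a median log2 difference of -0.06 against -0.003 over all genes, and the 4 with an unadjusted p below 0.05, which 28.3% of genes had, were all lower. In Tcon, 25 were positive and 22 negative, with a median of 0.01, and 2 had an unadjusted p below 0.05, as did 17.4% of genes. All 3 spleen libraries were below all 3 lymph node libraries for 12 of 47 members in Treg, where 15.1% of genes were, and above them for 1, where 16.8% were. In Tcon this was so for 2 members below, where 9.33% of genes were, and for 1 above, where 10.0% were. The count of lower values in Treg was 36 without library 02 and 35 without library 06, and it was 45 with columns rescaled to a common total, where the median of all genes was -0.03. In Tcon the lower values numbered 22, but 15 without library 06, 16 without library 02 and 36 without library 01 or 04.

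The active subunits and PA28 did not pass the test between organs. In Treg the log2 differences were -0.06 for Psmb8, -0.05 for Psmb9, 0.01 for Psmb10, -0.09 for Psmb5, -0.01 for Psmb6, -0.06 for Psmb7, -0.07 for Psme1 and -0.03 for Psme2. In Tcon they were -0.02 for Psmb8, 0.01 for Psmb9, 0.10 for Psmb10, -0.07 for Psmb5, 0.10 for Psmb6, 0.10 for Psmb7, -0.08 for Psme1 and -0.02 for Psme2. The lowest adjusted p among these 8 genes was 0.370 in Treg and 0.493 in Tcon (limma).

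Among the lowest organ values in Treg were those of assembly chaperones of the core particle, of which Psmg3 stood at -0.13. Psmg2, which with Psmg1 guides the alpha ring into place, had 14.4 and 14.7 CPM in the spleen SAH libraries, 14.5 in the spleen vehicle library, 16.3 and 18.2 in the lymph node SAH libraries and 17.4 in the lymph node vehicle library of Treg. All spleen libraries lay below all lymph node libraries, with a log2 difference of -0.23 (-0.40 to -0.07, adjusted p = 0.0533 by limma). Psmg1 had 11.9 and 11.2 CPM in the spleen SAH libraries, 12.2 in the spleen vehicle library, 12.9 and 14.3 in the lymph node SAH libraries and 13.7 in the lymph node vehicle library of Treg (log2 difference -0.20, adjusted p = 0.123 by limma). All 4 chaperones of this kind (Psmg1 to Psmg4) had negative values, with a median of -0.18 in Treg, and 3 of the 4 were negative in Tcon, with a median of -0.08. The groups did not overlap for Psmg1, Psmg2 and Psmg4 in Treg, where 15.1% of all genes had every spleen library below every lymph node library, and none of the 4 was called. These chaperones were picked out after their low values were seen, so their common direction is no separate evidence.

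Psmd7, the lid partner of Psmd14, had 50.7 and 50.5 CPM in the spleen SAH libraries, 47.7 in the spleen vehicle library, 54.5 and 53.5 in the lymph node SAH libraries and 58.9 in the lymph node vehicle library of Treg. Its spleen and lymph node values did not overlap, and the log2 difference was -0.16 (adjusted p = 0.0803 by limma). Psme4, the PA200 activator, followed at -0.12 (adjusted p = 0.114 by limma). With the columns rescaled to a common total, Psmg2 and Psmd7 passed the threshold in Treg, and Psmd7 did so without library 06 and Psme4 without library 05.

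In Tcon the smallest p between organs belonged to Psme3, a nuclear PA28-type activator. It had 131 and 132 CPM in the spleen SAH libraries, 134 in the spleen vehicle library, 148 and 153 in the lymph node SAH libraries and 148 in the lymph node vehicle library of Tcon. The organs did not overlap, and the log2 difference was -0.18 (-0.28 to -0.07, adjusted p = 0.0671 by limma), which passed the threshold with columns rescaled to a common total. In Treg, Psme3 stood at -0.06. Psmd13 was higher in every spleen library of Tcon than in any lymph node library, though by about 1 read between library 06 at 48.60 CPM and library 01 at 48.57 CPM. Its log2 difference was 0.17 (0.04 to 0.31, adjusted p = 0.162 by limma), followed by the beta ring subunit Psmb1 at 0.11 (adjusted p = 0.351) and by Psmg1 at -0.15 (adjusted p = 0.433, both by limma).

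**Figure D4:**
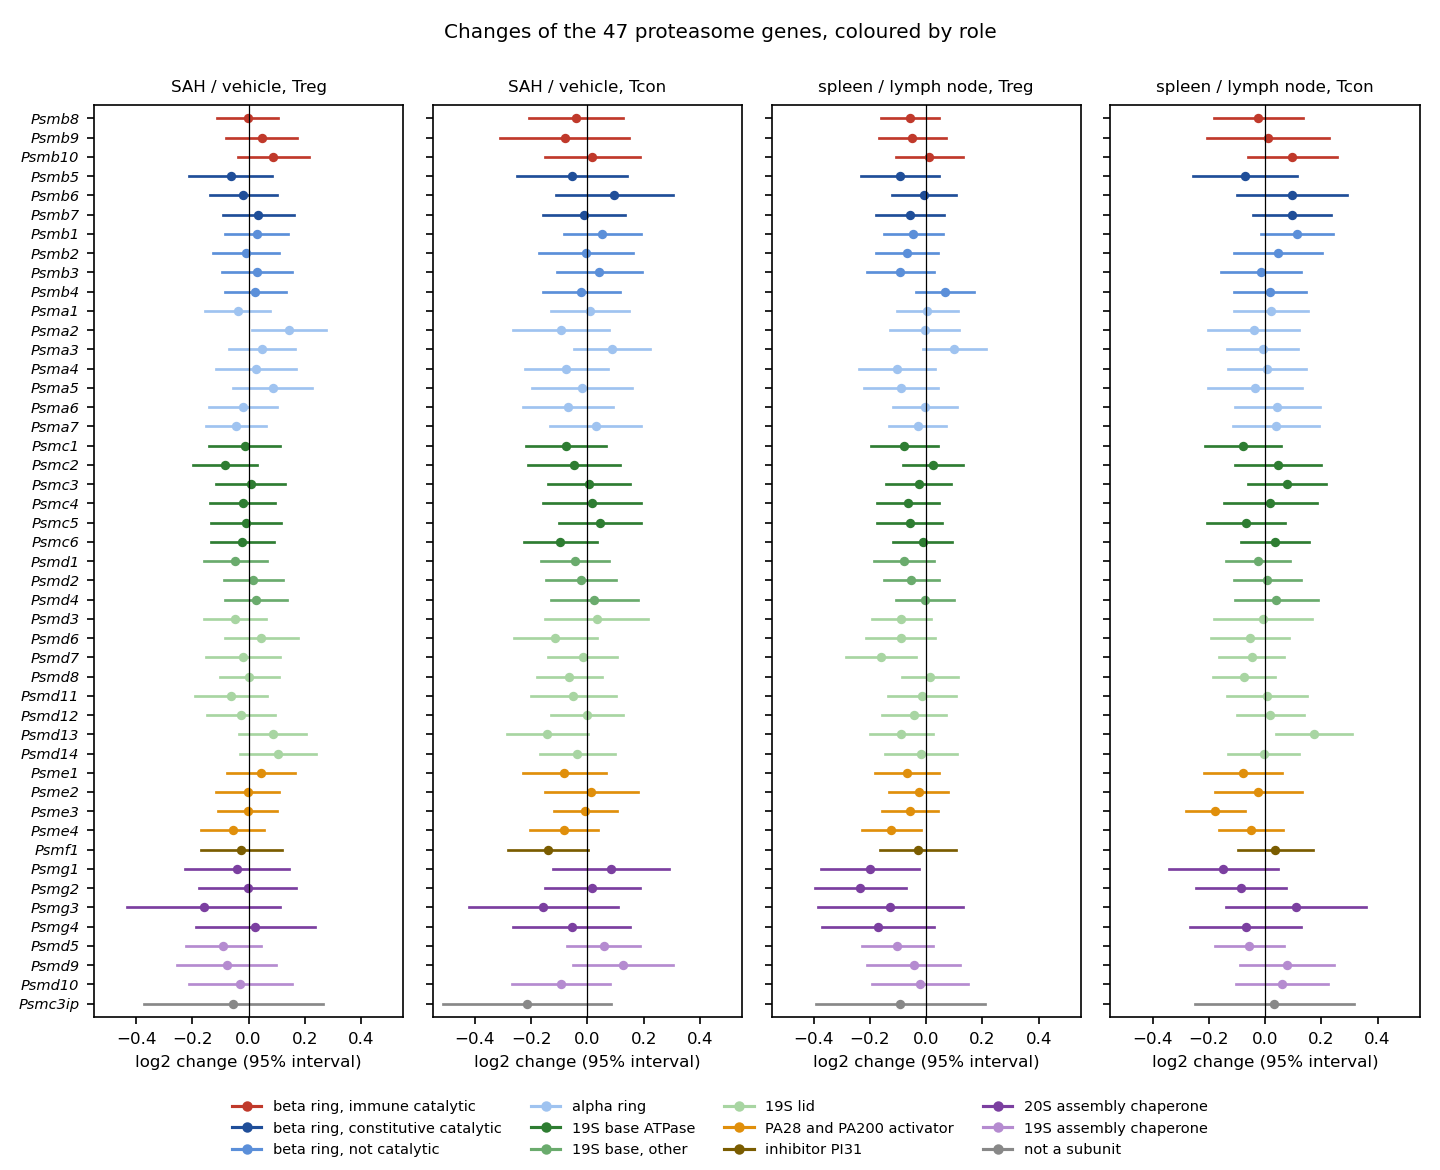
Log2 change of each of the 47 members with its 95% interval (horizontal axis, log2 scale) for SAH over vehicle in Treg and Tcon and for spleen over lymph node in Treg and Tcon, coloured by role. The points lie near 0, most intervals cross it, and 41 of the 47 organ values in Treg are to its left.

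The effects themselves were also compared. The SAH effect of spleen minus lymph node called 0 of 47 members in Treg, where 0.00961% of genes were called, and 0 of 47 in Tcon, where 0% were (limma), with an unadjusted p below 0.05 for 0 members in Treg and 1 in Tcon, where 2.41% of genes in Treg and 5.1% in Tcon had one. In Treg, 29 of the members were negative, and the members with the smallest p were Psma2 at -0.22, Psmd7 at 0.21, Psmd9 at -0.27 and Psmc3 at -0.16, each with an adjusted p of 1.00 (limma). In Tcon, 43 of 47 members were negative, with a median of -0.15 against -0.01 over all genes, and 41 to 44 were negative when 1 SAH library was left out. The 4 smallest p in Tcon were those of Psma7 (-0.28, adjusted p = 0.913 by limma), Psmb5 (-0.30), Psma6 (-0.23) and Psmg3 (-0.38). The 8 active and PA28 genes ranged from -0.15 to -0.07 in Treg and from -0.30 to -0.09 in Tcon. Each organ has 1 vehicle library in a cell type, so a difference of that library and an organ difference of the SAH effect cannot be told apart, and in Tcon the spleen vehicle library had 39 of 46 genes above the mean, as did library 02 of lymph node.

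The SAH effect of Treg minus Tcon called 0 of 47 members, where 0% of 9784 genes were called (limma), and 2 members had an unadjusted p below 0.05, as did 4.63% of genes. Its smallest p values were those of Psmd13 (0.23, adjusted p = 0.926 by limma), Psma2 (0.24), Psmd5 (-0.15) and Psmd6 (0.16), and the 8 active and PA28 genes ranged from -0.11 to 0.13. With library number as a block, 76 of 9784 genes and 0 members were called, and the lowest adjusted p of a member was 0.0988 (Psma2, limma). The organ difference of Treg minus Tcon called 0 of 47 members, where 1.46% of genes were called (limma), and 2 members had an unadjusted p below 0.05, as did 12.2% of genes. Psmd13 came first at -0.26 (-0.43 to -0.10, adjusted p = 0.133 by limma), followed by Psmb1 at -0.16 (adjusted p = 0.411), Psme3 at 0.12 and Psmb7 at -0.15. With library number as a block, Psmd13 was called (adjusted p = 0.0139 by limma), as were 703 of 9784 genes against 143 without it. Without the block it was also called when Tcon library 02 was left out (adjusted p = 0.0469 by limma). In Treg, Psmd13 had 63.7 and 58.9 CPM in the spleen SAH libraries, 57.96 in the spleen vehicle library, 65.4 and 65.5 in the lymph node SAH libraries and 61.3 in the lymph node vehicle library, so its spleen values overlapped lymph node in Treg, and in Tcon they lay above it. Of the 47 members 39 were negative in this comparison, and 25 were without Tcon library 01 or 04. The 8 active and PA28 genes ranged from -0.15 to 0.01.

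Other genes of the pathway were taken from lists chosen with earlier results of these data known. Of all genes, 7.04% in Treg and 14.1% in Tcon had an unadjusted p below 0.05 with SAH (limma). Between organs 28.3% in Treg and 17.4% in Tcon had one, and 14.7% in Treg and 4.73% in Tcon were called. Of 17 genes for proteasome partners and assembly, SAH called 0 in either cell type (limma; unadjusted p below 0.05 for 1 in Treg and 2 in Tcon), with the largest changes in Zfand2a, a heat-inducible proteasome-binding protein, at 0.17 in Treg and 0.31 in Tcon (adjusted p = 0.0584 in Tcon by limma). Usp14 followed at -0.11 in Treg and Zfand5 at 0.20 in Tcon. Between organs Zfand2a was called in both cell types, at 118 and 123.5 CPM in the spleen SAH libraries, 114 in the spleen vehicle library, 78.1 and 85.6 in the lymph node SAH libraries and 68.4 in the lymph node vehicle library of Treg. Every spleen library was above every lymph node library, with log2 differences of 0.61 in Treg (adjusted p = 3.91e-06) and 0.53 in Tcon (adjusted p = 0.00056, both by limma). Akirin2, which brings proteasomes into the nucleus, rose by 0.21 in spleen Treg (adjusted p = 0.0247 by limma), a call lost without library 01, 02 or 04. Of 10 ubiquitin and p97 genes 0 were called in any of these 4 comparisons (limma; unadjusted p below 0.05 for 0 to 2), the largest changes being those of Ngly1 (0.10) and Vcp (0.05) with SAH in Treg, Rps27a (0.20) and Ubb (0.19) with SAH in Tcon, Ngly1 (0.16) and Uba1 (-0.10) between organs in Treg, and Ubb (0.20) and Ngly1 (0.19) between organs in Tcon.

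Of 12 regulators of proteasome genes, SAH called 0 in either cell type (limma), with an unadjusted p below 0.05 for 1 in Treg and 4 in Tcon. Of all genes 7.04% in Treg and 14.1% in Tcon had such a p. Nfe2l2, which encodes a factor that binds the antioxidant response element, gave 0.27 in Treg (adjusted p = 0.490) and 0.36 in Tcon (adjusted p = 0.0664, both by limma), followed by Nfyb at -0.11 in Treg and Mafg at 0.18 in Tcon. Nfe2l1, whose product raises proteasome gene transcription when degradation fails, averaged 97.7 ± 2.85 CPM in the Treg libraries and 68.6 ± 2.27 CPM in the Tcon libraries (SD, n = 6 each). Between organs 3 regulators were called in Treg, where 14.7% of all genes were, and 0 in Tcon, where 4.73% of all genes were. In Tcon 2 regulators had an unadjusted p below 0.05, as did 17.4% of all genes. In Treg spleen, the small MAF genes Mafg (0.37, adjusted p = 0.00726) and Mafk (0.25, adjusted p = 0.0100) and Foxo3 (0.19, adjusted p = 0.0359) rose (all by limma). Mafg kept its call in 12 of 12 alternatives, while Mafk lost it without library 01, 02 or 04, and Foxo3 also with columns rescaled to a common total. In Tcon the largest changes between organs were those of Stat3 at 0.17 and Mafk at 0.16 (adjusted p = 0.0864 by limma). Of 15 heat shock genes, SAH called 5 in Treg, where 0.202% of all genes were called, led by Hspa1b (1.74), Hspa1a (1.77), Hspa1l (1.60) and Hsph1 (0.54). In Tcon 9 were called, where 1.04% of all genes were, led by Hspa1b (2.37), Hspa1a (2.40), Dnajb1 (0.61) and Hspa1l (1.91). All were higher with SAH, beside the 0 members. Between organs 10 heat shock genes were called in Treg, where 14.7% of all genes were, and 9 of them were higher in spleen (Hspa1b 1.64, Hspa1a 1.63, Hspa1l 1.46 and Hsph1 0.58 first). In Tcon 5 were called, where 4.73% of all genes were, all higher in spleen (Hsph1 0.48, Dnajb1 0.33, Hspa5 0.24 and Hspa1b 0.94 first).

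Several interferon-inducible genes fell in spleen, while the 5 interferon-inducible members did not pass the test. Of the 17 genes of the interferon list that are not members, 6 were called in Treg between organs, where 14.7% of all genes were called. All 6 were lower in spleen, and the median log2 difference of the 17 was -0.16. In Tcon 2 were called, where 4.73% of all genes were, both lower, with a median of -0.16 over the 17. Ifit3, an antiviral gene, had 15.9 and 9.31 CPM in the spleen SAH libraries, 13.3 in the spleen vehicle library, 44.3 and 27.3 in the lymph node SAH libraries and 22.3 in the lymph node vehicle library of Treg. The organs did not overlap, library 02 was the highest and library 06 the lowest, and the log2 difference was -1.19 (adjusted p = 0.000701 by limma). Usp18, which damps interferon receptor signalling, fell by 0.56 in spleen Treg (adjusted p = 0.0011) and by 0.70 in spleen Tcon (adjusted p = 0.0442, both by limma). The GTPase gene Ifi47 fell by 0.21 in spleen Treg (adjusted p = 0.0074) and Ifit1 fell by 0.57 in spleen Treg (adjusted p = 0.00999) and by 0.91 in spleen Tcon (adjusted p = 0.0236, all by limma). In Treg, Ifit3 and Usp18 kept their calls in 12 of 12 alternatives, Ifi47 lost its call without library 01, 02 or 04, and Ifit1 lost its call without library 02. In Tcon, Ifit1 lost its call without library 03, and Usp18 lost its call without library 01, 02, 04 or 06 and with genes of a mean of at least 5 CPM only. With SAH 0 of the 17 genes were called in either cell type (limma; unadjusted p below 0.05 for 1 in each), the largest changes being those of Oas1a (0.42) and Ifit3 (0.25) in Treg and Ifit1 (-0.29) and Rtp4 (-0.28) in Tcon. Of 12 class I antigen processing genes 0 were called in these 4 comparisons (limma; unadjusted p below 0.05 for 0 to 3), with Nlrc5 (0.10) and H2-D1 (0.08) for SAH in Treg, Calr (0.18) and Nlrc5 (0.11) for SAH in Tcon, H2-D1 (0.17) and H2-K1 (0.15) between organs in Treg, and Tapbp (-0.14) and Tap1 (-0.13) between organs in Tcon.

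**Figure D5:**
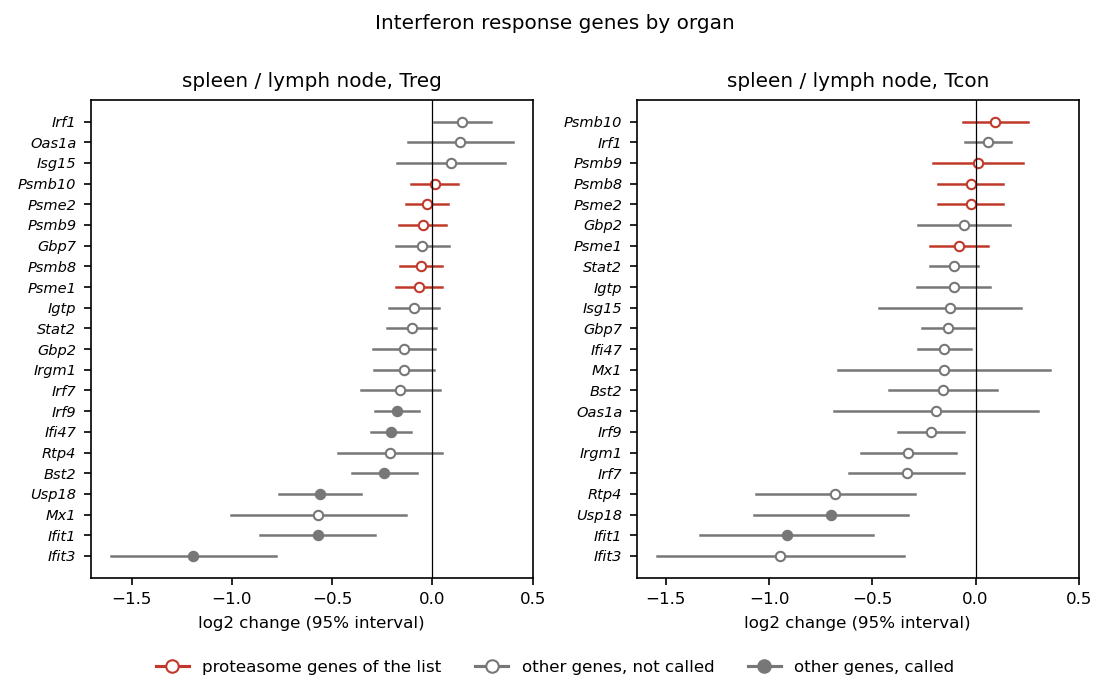
Log2 change of spleen over lymph node with its 95% interval (horizontal axis, log2 scale) for the interferon response list in Treg and Tcon, with the 5 proteasome genes of the list in red, other genes in grey and filled points where the adjusted p was below 0.05. Ifit3 is farthest to the left (-1.19 in Treg), and the proteasome genes lie between -0.08 and 0.10.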

How the data were processed

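The data are 12 RNA libraries, 6 of Treg and 6 of Tcon. Alignment with TopHat and Bowtie to mm10, and use of edgeR, are named in the submitters' processing notes, with no versions; neither the annotation nor the counting program is given there. One normalized signal per gene and library, called CPM in the file headers, was deposited by the authors in a table for each cell type, and it summed to 971928 to 1.02143e+06 per library. The authors also deposited, per the file headers, log2 values (a fold change and a mean level), p-values with a false discovery rate, and scores (a likelihood ratio and a call). Values below 20 CPM came out within 0.1 of a whole read in 100% of cases, from which the depth was rebuilt. No count model was used on these scaled values.

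Values were analysed as log2(CPM + 1) with limma 3.58.1 in R 4.3.3 (linear model, empirical Bayes with intensity trend, two-sided), over genes with at least 1 CPM in at least 2 libraries. Organ and treatment were terms of 1 model within a cell type (3 residual degrees of freedom), interactions were tested with 2, and Treg minus Tcon effects in 1 model of 12 libraries over 9784 shared genes. P-values were adjusted by Benjamini-Hochberg over all genes of a comparison and called below 0.05. The code was tested on simulated data. Levels were not tested between the tables, which were normalized separately. Lengths, coordinates and exons are from GENCODE M21, promoters from RefSeq. Fold changes on the log2(CPM + 1) scale understate the change of low genes.

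Library numbers paired Treg and Tcon samples only in the sign-flip test and in the fits with library number as a block. The main fit and the permutation test did not pair them, since the labels do not say what a shared number means. The residuals of same-numbered libraries from the organ and treatment fit of each cell type correlated at 0.286 to 0.537 over 9784 genes (libraries 01 and 04 share 1 value, since the fit makes their residuals mirror each other). Each Treg library matched best the Tcon library of its own number. The members, lists and tests were chosen with earlier results of these data known. The genes named in each comparison are the 6 active subunits, Psme1, Psme2 and the 4 members with the smallest p, the members highest and lowest per length and, of each other list, up to 4 called genes or else the 2 with the largest change. Psmg3, Psmg4 and Psme3 between organs in Treg, and the levels of Nfe2l1 and Tap1, are named beside this rule, with their values known. So are the marker genes, the members apart between cell types and the members with 1 library apart. Some genes of the other lists are not reported here.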

Additional observations from a re-analysis of the deposited data

Results flagged for a closer look

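The SAH libraries of Psmd13, a lid subunit, lay on opposite sides of vehicle in the 2 cell types: all 4 SAH libraries of Treg were above the vehicle library of their organ and all 4 of Tcon were below it. All 4 SAH libraries lay on 1 side of vehicle for 25.2% of genes in Treg and 33.3% in Tcon. The difference of the effects was 0.23 on the log2 scale and did not pass the test (adjusted p = 0.926 by limma over 9784 genes). The organ difference of Psmd13, Treg minus Tcon, was -0.26 and did not pass the threshold (adjusted p = 0.133 by limma), but did so with library number as a block (adjusted p = 0.0139) and without Tcon library 02 (adjusted p = 0.0469, both by limma).

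In 6 of 94 member levels, 1 library of the 6 of a cell type stood apart by more than Dixon's 95% critical value. For 6 independent draws of 1 population about 1 in 20 groups would pass it, and the count was close to that rate. The libraries differ in organ and treatment, and many members move together by library, so the rate is only a rough guide. The share over all genes was not computed. Psmc1, an ATPase, was at 49.8 CPM in Treg library 06 and at 53.9 to 56.1 CPM in the others, a gap of 0.645 of the range. In Tcon, Psma2 was at 70.3 CPM in library 06 and 82.5 to 88.0 in the others (0.691 of the range). The ATPase Psmc5 was at 92.8 CPM in Tcon library 02 and 79.2 to 82.7 in the others (0.746 of the range). The spleen vehicle library 04 of Tcon stood apart for 3 members. Psmc6 was at 99.0 CPM there and 85.95 to 90.6 in the others (0.645 of the range), Psmg3 at 5.67 CPM there and 3.97 to 4.54 in the others (0.667 of the range), and the assembly chaperone Psmd5 at 40.2 CPM there and 43.2 to 44.5 in the others (0.703 of the range).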

How the results depend on the processing

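The 3 pair ratios kept their direction with either organ alone, at log2 differences of 0.32, 0.28 and 0.43 in spleen and 0.33, 0.23 and 0.37 in lymph node for Psmb8 over Psmb5, Psmb9 over Psmb6 and Psmb10 over Psmb7, where the smallest exact p for 3 against 3 libraries is 0.1. Of 106 counts of members called under the alternatives, 100 were 0. The alternative without a filter repeats the main fit, since every listed gene passes the filter. The exceptions were 2 members (Psmg2 and Psmd7) between organs in Treg and 1 (Psme3) in Tcon with columns rescaled to a common total, 0 to 1 with single libraries left out between organs in Treg, and, for the organ difference of Treg minus Tcon, 1 (Psmd13) with the replicate block by library number and 0 to 1 with single libraries left out (1 without Tcon library 02). The block changed no other call of a member. The Psmb8 level in Treg was 135 CPM per kb with the longest transcript, 76.3 with the union of exons and 158 with the principal transcript, the last added after the data were seen. Over the alternatives, the genes called numbered 7 to 95 for SAH in Treg, 11 to 226 for SAH in Tcon, 768 to 1830 between organs in Treg, 215 to 628 between organs in Tcon, 0 to 94 and 0 to 15 for the SAH effect of spleen minus lymph node in Treg and Tcon, 0 to 76 for the SAH effect of Treg minus Tcon and 79 to 703 for the organ difference of Treg minus Tcon.

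Of 64 results of single named members, 19 turned direction in at least 1 alternative, and in the main fit none of these exceeded 0.10 in size on the log2 scale. With columns rescaled to a common total, SAH in Tcon gave -0.027 for Psmb10 and -0.031 for Psme2, and the organ difference was -0.018 for Psmb10 in Treg and -0.0047 for Psmb9 in Tcon. With single libraries left out, the log2 change with SAH in Treg ranged from -0.071 to 0.034 for Psmb6, -0.038 to 0.11 for Psmb7, -0.036 to 0.030 for Psmb8, -0.019 to 0.11 for Psme1 and -0.044 to 0.038 for Psme2. With SAH in Tcon it ranged from -0.041 to 0.063 for Psmb10, -0.20 to 0.093 for Psmb5, -0.039 to 0.23 for Psmb6, -0.089 to 0.065 for Psmb7, -0.11 to 0.028 for Psmb8 and -0.051 to 0.079 for Psme2. Between organs in Treg it ranged from -0.034 to 0.068 for Psmb10, -0.043 to 0.021 for Psmb6, -0.083 to 0.00034 for Psmb9 and -0.054 to 0.0023 for Psme2. Between organs in Tcon it ranged from -0.17 to 0.017 for Psmb5, -0.069 to 0.047 for Psmb8, -0.084 to 0.13 for Psmb9 and -0.078 to 0.055 for Psme2. The cause was not tested.

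Count models (edgeR and DESeq2) on reads rebuilt from the scaled values were not run, and the SAH effect of spleen minus lymph node could not be fitted without library 01 or 04. Each organ has 1 vehicle library per cell type, so results rest on few libraries. For depth, 1 read was worth at most 0.0267 CPM, against a mean of 2.00 CPM for Psmc3ip, the lowest member in Treg.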
